A study of Beta vulgaris subsp. vulgaris with 30 samples.

Results

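BV-16/1 (Bevul.1G174400) and BV-70/5 (Bevul.2G111200) are the genes of 2 subunits of the sugar beet vacuolar proton pump, the V-type H+-ATPase. They were chosen by their identifiers in the deposited count table, and both rows were found, 2 of the 21587 genes counted and of the 14128 genes tested. Shoots of sugar beet seedlings (Beta vulgaris subsp. vulgaris) gave 30 RNA libraries in 5 groups, with 6 libraries to a group. The groups were taken after ethanol pretreatment and freezing, after water pretreatment and freezing, after ethanol pretreatment, after water pretreatment and before any pretreatment. All seedlings grew in soil at 22 °C with 16 h of light and 8 h of dark. Pretreatment lasted 3 days in the water groups as in the ethanol groups. The series description gives seedlings of 7 days, 80 mM ethanol for 3 days and an overnight freezing step between -2.1 and -3.5 °C. The protocols of the single samples instead describe Arabidopsis at 14 days, freezing at -4.0 °C and 20 mM ethanol for 6 days. The identifiers and chromosome names in the counts are those of the beet assembly EL10.2, and the beet description is used here. The treatment names of the frozen groups carry 2 h, counted from a point the labels do not state. The cultivar, and whether a library holds 1 plant or a pool, are not given in the sources used here.

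The V-ATPase is a rotary enzyme of the vacuole and other inner membranes. Its peripheral sector splits ATP and its membrane sector carries protons into the lumen, and the resulting gradient drives the uptake of sugars, ions and metabolites into the vacuole. Subunit A, encoded by BV-70/5, is the catalytic subunit that splits ATP. Subunit c, encoded by BV-16/1, is the small proteolipid of the membrane sector that forms the rotor ring and binds the protons. The genes of subunits A and c have been described as induced together in salt-stressed sugar beet, and in mung bean the pump is known to lose activity in the cold. In sugar beet the vacuole is the store for sucrose.

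BV-16/1 lies on chromosome 1, from 58834395 to 58838186 on the plus strand of EL10.2, and BV-70/5 on chromosome 2, from 33827397 to 33835152 on the plus strand. No other gene of the count table overlaps either of them. The RefSeq model of BV-16/1 runs from 58834254 to 58838580 and so ends 394 bp downstream of the counted model, while that of BV-70/5 runs from 33827584 to 33834928 and ends 224 bp upstream of it. The libraries were primed on the poly(A) tail, so reads beyond the counted 3′ end of BV-16/1 would not be in its count. For this reason the levels of the 2 genes are not compared with each other, only their changes. Whether the share of uncounted reads differed between groups was not tested. Such a difference would bear on the changes of BV-16/1 and on its reads relative to those of BV-70/5. In other plants subunit c is encoded by a small family of closely similar genes. No sequences were used here, so reads shared with similar beet genes were not checked and the counts of BV-16/1 are uncertain to that extent. The other subunits of the pump and the vacuolar pyrophosphatase could not be followed, because the annotation used gives names to 15 nuclear genes only and describes none. For the same reason the label "shoot" was not checked against marker genes.

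Total counts ran from 3379082 to 17868082 per library. BV-16/1 had 303 to 2419 reads and BV-70/5 had 1386 to 7255 reads in a library, so that counting error was at most 5.74% and 2.69% of a value. Ethanol replicate 4, the shallowest library, lay alone on component 2 of a principal component analysis at 154.43, and water replicate 3 lay alone on component 4 at 121.27. Levels are in CPM, counts brought to a common scale by the trimmed mean of M values (TMM). The TMM factors were 0.98 to 1.17 in the 12 frozen libraries and 0.83 to 1.05 in the 18 unfrozen ones, so the scaling bears on any change with freezing. With library totals alone, the median log2 change of all tested genes with freezing moved by 0.17 after ethanol and by 0.18 after water. Changes with freezing and those against before pretreatment are therefore also given relative to the median of all genes, which that choice moved by less than 0.01. Nothing in the labels says that the 6 libraries of a group came from separate plants or cultures, and the p-values then cover only the spread between libraries, which may be technical. In whole shoots, fewer cells of a type and less RNA per cell cannot be told apart.

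BV-16/1, the subunit c gene, had its highest means in the frozen shoots and its lowest mean in the ethanol shoots that had not been frozen. Its lowest, median and highest levels were 98.9, 118.9 and 131 CPM after ethanol and freezing, and 93.0, 116.7 and 123.6 CPM after water and freezing. They were 73.6, 84.2 and 113.1 CPM after ethanol, 83.0, 99.5 and 131 CPM after water, and 85.5, 99.5 and 113.9 CPM before pretreatment. All 5 groups overlapped in part. The means in falling order were 117.3 ± 13.1 CPM after ethanol and freezing, 113.9 ± 11.6 after water and freezing, 103.4 ± 16.6 after water, 100.2 ± 9.94 before pretreatment and 88.1 ± 15.9 after ethanol (SD, n = 6 each). Each neighbouring pair in that order missed the test in its own comparison.

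BV-70/5, the subunit A gene, had its lowest values before pretreatment and its highest after pretreatment without freezing. Its lowest, median and highest levels were 313, 336 and 394 CPM after ethanol and freezing, and 303, 335 and 379.8 CPM after water and freezing. They were 336, 369 and 406 CPM after ethanol, 345, 366 and 382 CPM after water, and 294, 315 and 339 CPM before pretreatment. The means in falling order were 371 ± 26.2 CPM after ethanol, 364 ± 13.7 after water, 347 ± 32.9 after ethanol and freezing, 338 ± 26.3 after water and freezing and 315 ± 14.7 before pretreatment. Neighbours in this order overlapped in every case.

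**Figure D1:**
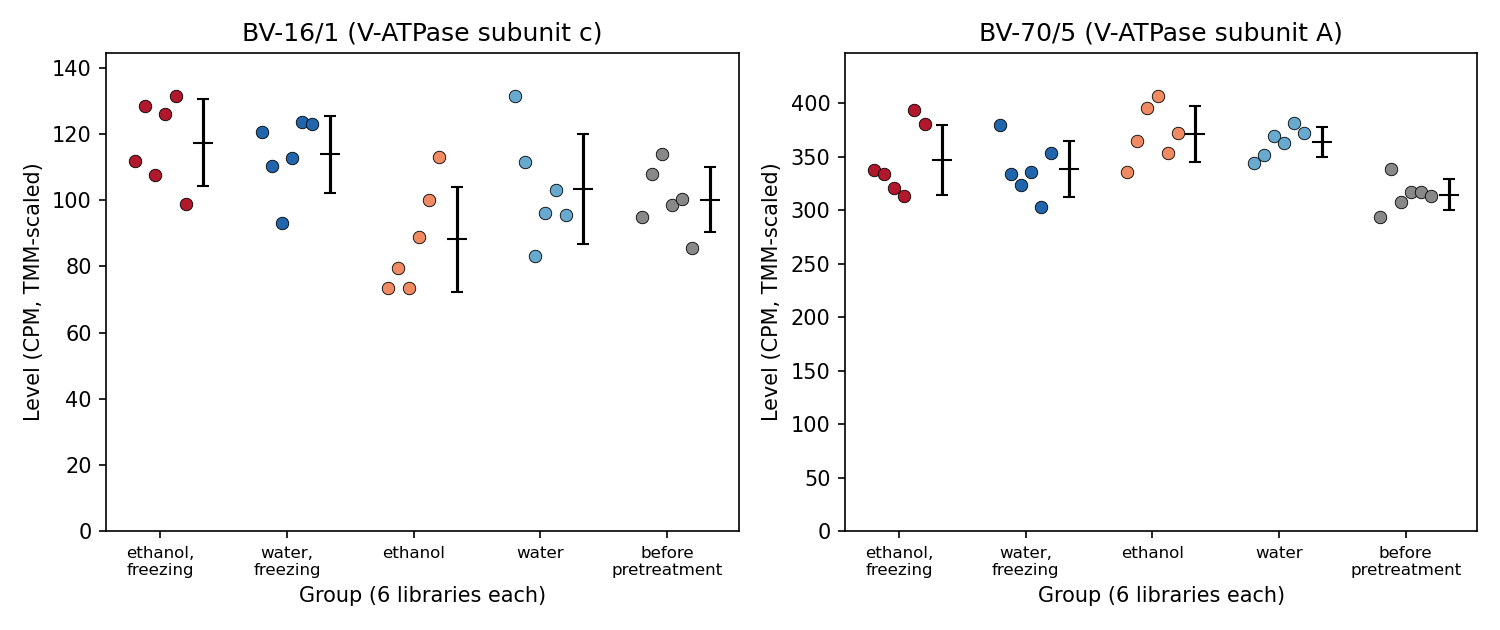
Level of BV-16/1 (left) and BV-70/5 (right) in CPM in each of the 30 libraries, by group, with the mean and SD of 6 libraries beside the points. BV-16/1 is lowest after ethanol without freezing, and BV-70/5 is lowest before pretreatment, where its highest library (339 CPM) lies below all 6 water libraries (345 to 382 CPM).

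BV-70/5 was also among the steadiest genes of its level. Within groups its log2 CPM had an SD of 0.098, against a median of 0.238 for the 256 tested genes whose mean CPM lay within 1.5-fold of its own, and 98.4% of those genes had a larger SD. BV-16/1 varied more, with an SD of 0.193 against a median of 0.267 for 617 such genes, of which 82.2% had a larger SD.

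Freezing after ethanol raised BV-16/1, the subunit c gene, by a log2 change of 0.41 ± 0.13 (SE), which is 1.33-fold with a 95% interval of 1.11 to 1.60. Of the frozen libraries, 3 of 6 lay above the highest unfrozen ethanol library, and the 2 groups overlapped. In absolute size, 46.0% of all tested genes changed less than BV-16/1 in this comparison. The adjusted p was 0.0301 by the quasi-likelihood test of edgeR, adjusted after Benjamini and Hochberg over all genes, and 12.3% of all tested genes were called in this comparison, 5.78% as higher. BV-70/5, the subunit A gene, had a log2 change of -0.10 ± 0.09 (95% interval -0.29 to 0.09, adjusted p = 0.623 by edgeR). Relative to the median of all genes, BV-16/1 stood at +0.32 and BV-70/5 at -0.19, with the same values to 2 decimals under library totals. Without that reference, BV-70/5 changed sign under library totals, to 0.07. The BV-16/1 call was lost when ethanol replicate 1, 2, 3 or 4 was left out (adjusted p of 0.0832, 0.0692, 0.0842 and 0.0768) and when frozen ethanol replicate 2, 4 or 5 was left out (0.0657, 0.0652 and 0.0719). It was also lost without a low-count filter (0.0516), in a fit of these groups alone (0.0728) and without both libraries that stand apart (0.0711). Over all alternatives the adjusted p ranged from 0.00108 to 0.0842.

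Freezing after water left both genes short of the threshold, in a comparison where 11.1% of all tested genes were called. BV-16/1 had a log2 change of 0.14 ± 0.13, with a 95% interval of -0.12 to 0.40 and an adjusted p of 0.632 by edgeR. The change of BV-70/5 was -0.10 ± 0.09, with an interval of -0.29 to 0.08 and an adjusted p of 0.607. Of the frozen water libraries, 4 of 6 had less BV-70/5 than any unfrozen water library, and none had more BV-16/1 than the highest unfrozen water library, replicate 1. Relative to the median of all genes the changes were +0.06 for BV-16/1 and -0.19 for BV-70/5. The value of BV-16/1 moved to 0.32 under library totals and to 0.05 without both libraries that stand apart, and was called in neither case (adjusted p of 0.0977 and 0.923). It was 0.08 without water replicate 3 and 0.22 without water replicate 1, the lowest and highest with 1 library left out, and was called in none of those 12 fits.

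The freezing responses after ethanol and after water were not shown to differ. The difference of the log2 changes was 0.27 ± 0.18 for BV-16/1, with a 95% interval of -0.10 to 0.64, and 0.01 ± 0.13 for BV-70/5, with an interval of -0.26 to 0.27 (adjusted p of 1.000 in both cases by edgeR). By edgeR, 0% of all tested genes were called in this comparison. Averaged over both pretreatments, with 12 frozen and 12 unfrozen libraries, freezing raised BV-16/1 by 0.28 ± 0.09 on the log2 scale, or 1.21-fold with a 95% interval of 1.06 to 1.38. Its adjusted p was 0.0267 by edgeR, where 21.1% of all tested genes were called, 10.9% as higher. BV-70/5 had an averaged change of -0.10 ± 0.07 (adjusted p = 0.317 by edgeR), which under library totals was 0.07. The median averaged change of all genes was 0.10, and relative to it BV-16/1 stood at +0.18 and BV-70/5 at -0.20. In absolute size, 35.9% of all tested genes had a smaller averaged change than BV-16/1. The averaged call of BV-16/1 was lost without water replicate 3 (adjusted p of 0.0539), without ethanol replicate 1, 3 or 4 (0.0529, 0.0531 and 0.0663), in a fit of these 4 groups alone (0.0752) and without both libraries that stand apart (0.130). Over all alternatives that adjusted p ranged from 0.000172 to 0.130. The hour of sampling is not stated in the labels. In each comparison with freezing, after ethanol, after water or averaged, an effect of the hour cannot be told apart from one of freezing.

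**Figure D2:**
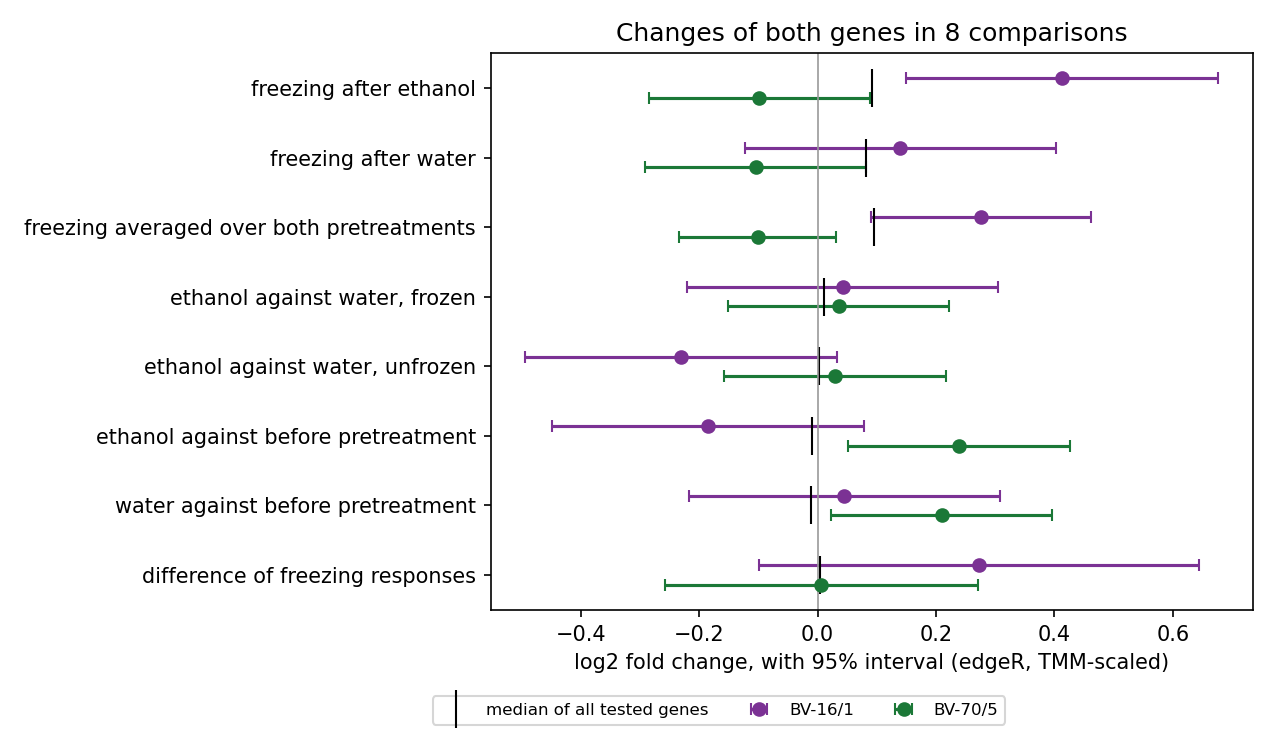
Log2 fold change of BV-16/1 and BV-70/5 in 8 comparisons with 95% intervals from the edgeR fit, with a tick for the median change of all 14128 tested genes. With freezing the points of BV-16/1 lie to the right of the median tick and those of BV-70/5 to the left, and after pretreatment BV-70/5 lies to the right, at 0.24 after ethanol and 0.21 after water.

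Ethanol against water gave no change that passed the test for either gene. In frozen shoots the log2 change was 0.04 ± 0.13 for BV-16/1, with a 95% interval of -0.22 to 0.31, and 0.04 ± 0.09 for BV-70/5, with an interval of -0.15 to 0.22 (adjusted p of 1.000 for both by edgeR, 0.106% of all tested genes called). In unfrozen shoots it was -0.23 ± 0.13 for BV-16/1, with an interval of -0.49 to 0.03, and 0.03 ± 0.09 for BV-70/5, with an interval of -0.16 to 0.22 (adjusted p of 1.000 for both, 0.00708% called). Of the unfrozen ethanol libraries, 3 of 6 had less BV-16/1 than any water library. The unfrozen change of BV-16/1 ran from -0.32 without ethanol replicate 6 to -0.15 without water replicate 1, and that of BV-70/5 from 0.0051 without ethanol replicate 4 to 0.06 without ethanol replicate 1. In frozen shoots the sign turned for BV-16/1 without frozen water replicate 3 (-0.0094) and for BV-70/5 without frozen ethanol replicate 5 (-0.0035). The intervals leave room for BV-16/1 to lie between 0.71-fold and 1.02-fold of its water level after ethanol alone.

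Over the 3 days of pretreatment, BV-70/5 stood at higher levels than before in most libraries, short of the test over all genes, and BV-16/1 overlapped its earlier range. BV-70/5 had a log2 change of 0.24 ± 0.09 after ethanol against before pretreatment (95% interval 0.05 to 0.43) and of 0.21 ± 0.09 after water against before pretreatment (0.02 to 0.40). Neither passed edgeR's test over all genes, with adjusted p of 0.162 and 0.266, where 3.77% and 3.09% of all tested genes were called. All 6 water libraries lay above all 6 libraries taken before pretreatment, as they did in 1.32% of all tested genes, and 5 of 6 ethanol libraries did. An exact permutation test of BV-70/5 alone (two-sided, n = 6 each, not adjusted) gave 0.00216 for water, the smallest value that the splits of 6 against 6 can give, and 0.00433 for ethanol. DESeq2 called the ethanol comparison (adjusted p of 0.0323) and not the water one (0.0789). With library totals the ethanol change was 0.36 (adjusted p of 0.0225). Over all alternatives but the permutation test, the adjusted p of BV-70/5 ranged from 0.0225 to 0.282 for ethanol and from 0.0699 to 0.396 for water. BV-16/1 had log2 changes of -0.18 ± 0.13 after ethanol (interval -0.45 to 0.08) and 0.05 ± 0.13 after water (interval -0.22 to 0.31), with adjusted p of 0.566 and 0.942 by edgeR. The change after water was -0.03 without water replicate 1. Relative to the median of all genes, BV-70/5 stood at +0.25 after ethanol and +0.22 after water, and BV-16/1 at -0.18 and +0.06. Seedling age differs with pretreatment in both of these comparisons, and the 2 cannot be told apart.

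A single test of any difference among the 5 groups did not call either gene, with adjusted p of 0.106 for BV-16/1 and 0.294 for BV-70/5 by edgeR, where 20.1% of all tested genes were called. With library totals both were called, at 0.000507 and 0.00471. Leaving out ethanol replicate 6 gave BV-16/1 an adjusted p of 0.0384.

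The reads of BV-16/1 relative to those of BV-70/5 in the same library do not depend on library scaling. The lowest, median and highest number of BV-16/1 reads per 100 BV-70/5 reads were 26.0, 33.4 and 40.2 after ethanol and freezing, 28.7, 33.3 and 40.8 after water and freezing, 18.6, 21.9 and 30.4 after ethanol, 22.4, 26.7 and 38.1 after water, and 27.3, 31.7 and 37.0 before pretreatment. The ethanol shoots held the least subunit c reads per subunit A read, and the frozen groups and the group before pretreatment lay close together. These are ratios of reads, not of transcripts or of protein.

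Freezing after ethanol raised this ratio by 0.52 ± 0.14 (SE) on the log2 scale, or 1.44-fold, and 5 of 6 frozen libraries lay above all 6 unfrozen ethanol libraries. The exact permutation test (two-sided, n = 6 each) gave p = 0.00649, or 0.0260 adjusted over the 6 ratio comparisons. The adjusted value stayed between 0.0195 and 0.0455 when any 1 of the 12 libraries was left out, and without both libraries that stand apart it was 0.0455, for a difference of 0.50. The ratio was lower after ethanol than before pretreatment, with a difference of -0.44 ± 0.12 on the log2 scale, or 0.74-fold. Here 4 of 6 ethanol libraries lay below all 6 earlier ones (exact permutation p = 0.00866, adjusted 0.0260). That call was lost when replicate 1, 2, 3, 4 or 5 from before pretreatment was left out, at adjusted values of 0.0649, 0.0584, 0.0714, 0.0519 and 0.0584, within 0.0195 to 0.0714 over the 12 libraries left out in turn. Without both libraries that stand apart the ratio difference was -0.41 (adjusted 0.0455). Both calls rest on the same 6 unfrozen ethanol libraries and are not independent results. The mean log2 ratio was -2.09 in those libraries, -1.57 after ethanol and freezing and -1.65 before pretreatment. Seedling age also differs in the ratio comparisons with the group before pretreatment, and age and pretreatment cannot be told apart. Nor can the hour of sampling and freezing be told apart in the ratio.

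The other 4 ratio comparisons did not pass. Freezing after water had a difference of 0.26 ± 0.13 (95% interval -0.03 to 0.54, exact permutation p = 0.0844, adjusted 0.169), and water against before pretreatment one of -0.17 ± 0.12 (-0.45 to 0.10, p = 0.180 by the exact permutation test, adjusted 0.216). Both passed without water replicate 1, at adjusted values of 0.0216 and 0.0325. Ethanol against water gave 0.01 ± 0.11 in frozen shoots (-0.24 to 0.26, exact permutation p = 0.972) and -0.26 ± 0.15 in unfrozen shoots (-0.60 to 0.08, exact permutation p = 0.121, adjusted 0.182). The last of these was -0.17 without water replicate 1. A test of the averaged freezing effect, added after the data were seen and not adjusted, gave a rise of 0.39 (exact permutation p = 0.00102, frozen labels permuted within pretreatment), and 0.35 without both libraries that stand apart (exact permutation p = 0.00350). The difference between the ratio responses after ethanol and after water, added likewise, was 0.27 (exact permutation p = 0.180), so that the pretreatments were not shown to differ.

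**Figure D3:**
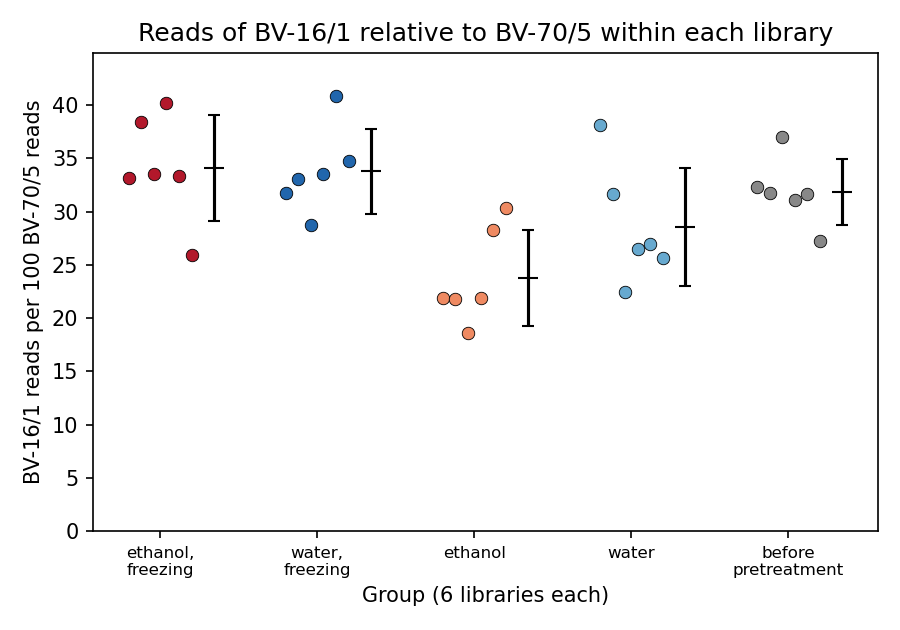
BV-16/1 reads per 100 BV-70/5 reads in each library, by group, with the mean and SD of 6 libraries beside the points. The ethanol libraries lie between 18.6 and 30.4 and the frozen ethanol libraries between 26.0 and 40.2, with 1 frozen library inside the ethanol range.

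Within groups, no relation between the levels of BV-16/1 and BV-70/5 was shown. The deviations of log2 CPM from the group means had a Pearson's r of -0.02 (permutation p = 0.928) and a Spearman's rho of -0.05 (permutation p = 0.815) over 30 libraries, with labels permuted within groups in 100000 draws. The Benjamini-Hochberg adjustment leaves a single relation unchanged. Without the 2 libraries farthest from the median on BV-70/5, frozen water replicate 1 and frozen ethanol replicate 5, r was -0.15. Over the values with group means kept, r was -0.18 and rho -0.13, as a description only.

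**Figure D4:**
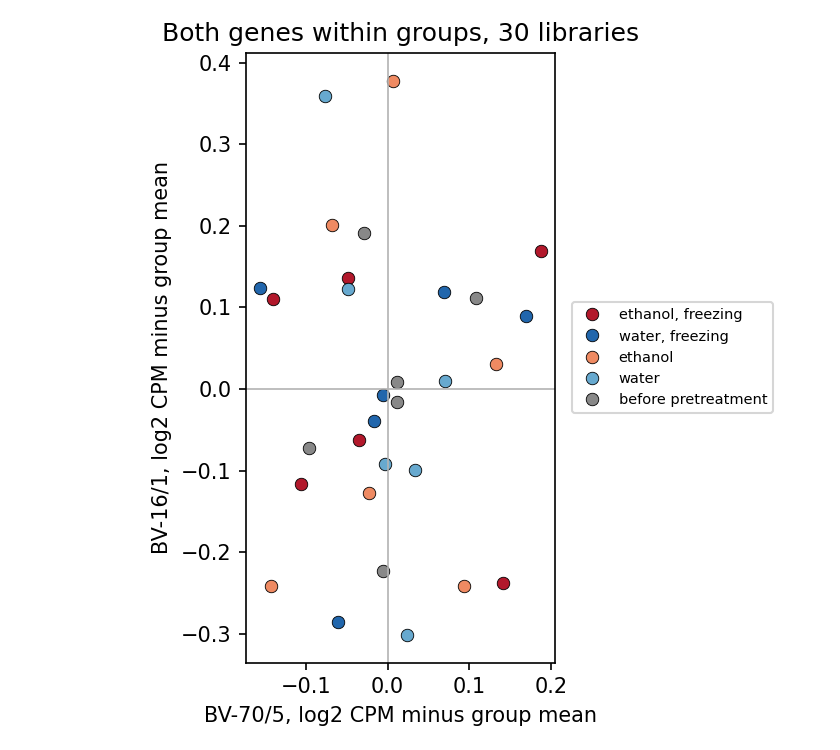
Deviation of log2 CPM from the group mean for BV-70/5 (horizontal) and BV-16/1 (vertical) in 30 libraries, coloured by group. The points spread around the origin (r of -0.02), and BV-16/1 spreads more widely than BV-70/5, with within-group SDs of 0.193 and 0.098.

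Of 5406 genes averaging 10 CPM or more, those most like each gene were ranked by Pearson's r of log2 CPM over the 30 libraries, which differ in depth and include all 5 groups, and no test was made. For BV-16/1 they were Bevul.2G160400 (r = 0.71), Bevul.5G092300 (0.70) and Bevul.5G079600 (0.69), and with group means removed r was 0.54, 0.61 and 0.50. Since these libraries include the frozen and unfrozen groups, the changes of such genes with freezing are a description only. The log2 changes were 1.66, 0.84 and 1.41 after ethanol and 1.00, 1.12 and 1.05 after water. Bevul.2G160400 varied widely, with 24.0 ± 14.2 CPM after ethanol and freezing and 22.9 ± 18.2 after water and freezing. For BV-70/5 the nearest were Bevul.2G092100 (r = 0.68), Bevul.9G224400 (0.64) and Bevul.2G082700 (0.62), and with group means removed r was 0.35, 0.33 and 0.37. Of these, Bevul.2G092100 held 29.1 ± 6.35 CPM after ethanol and freezing, 35.2 ± 3.51 after water and freezing, 47.6 ± 9.16 after ethanol, 47.7 ± 8.26 after water and 22.1 ± 7.61 before pretreatment. The 3 genes nearest BV-70/5 had log2 changes with freezing of -0.71, -0.68 and -0.20 after ethanol and -0.44, -0.45 and -0.11 after water. These too are a description only. BV-70/5 itself ranked 3734 in likeness to BV-16/1, and BV-16/1 ranked 4049 in likeness to BV-70/5.

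The chromosomal neighbours of both genes had few reads. Bevul.1G174300 lies 9293 bp before BV-16/1 and had 0 to 38 reads, and Bevul.1G174500 lies 6500 bp after it and had 0 to 61 reads. Bevul.2G111100 lies 56680 bp before BV-70/5 and had 9 to 144 reads, with log2 changes with freezing of 1.01 ± 0.36 after ethanol and 0.79 ± 0.36 after water (adjusted p of 0.0667 and 0.191 by edgeR). Bevul.2G111300, 48695 bp after BV-70/5, had 0 reads in all 30 libraries.

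**Figure D5:**
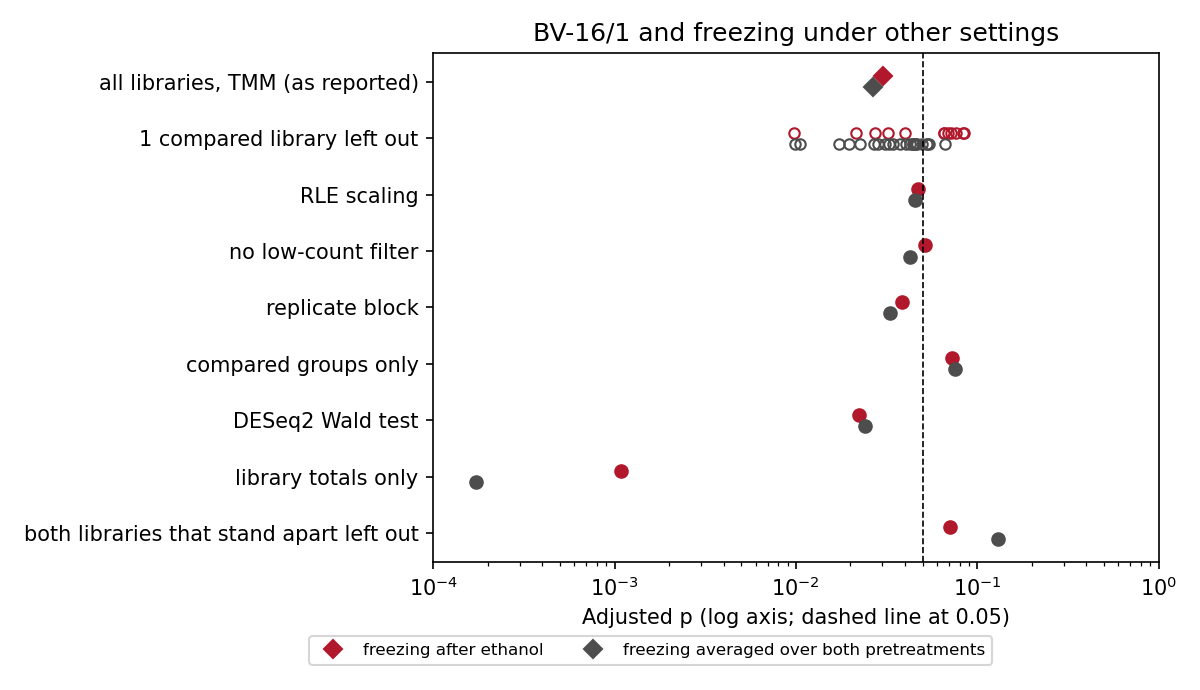
Adjusted p of BV-16/1 for freezing after ethanol and for freezing averaged over both pretreatments, on a log axis, under each setting, with open circles for fits that left out 1 compared library. The values lie on both sides of the dashed line at 0.05, from 0.00108 to 0.0842 after ethanol and from 0.000172 to 0.130 for the average.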

How the data were processed

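RNA of 30 shoot samples, 200 ng of total RNA each, was made into poly(A)-primed Lasy-Seq libraries, per the labels' protocols. The submitters' processing notes name bcl2fastq, Trimmomatic, HISAT2, featureCounts and DESeq2 without versions, and the Arabidopsis build TAIR10, but the chromosome names in the deposited table are those of EL10.2. That table holds counts, whole reads per gene as the authors deposited them. Its gene length equals the full span of both genes, 3792 bp for BV-16/1 and 7756 bp for BV-70/5. Reads within introns may therefore be in the counts, which was not checked. Whether strand was used is not stated. The authors' other deposited table holds a signal, found to be the count over a constant for each library (relative spread up to 1.18e-09), and served as a check only. Names came from the RefSeq table of EL10.2, as synonyms.

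Counts were fitted with edgeR 4.0.16 in R 4.3.3: filterByExpr by group (14128 genes, 99.9% of reads), TMM, 5 group means over all 30 libraries, quasi-likelihood tests, Benjamini-Hochberg over all genes, threshold 0.05. Intervals of log2 changes cover 95%, and those of the ratio assume normal errors. Log2 CPM used a prior count of 2 and the read ratio 0.5 added to each count. Permutation tests ran in Python 3.11.15 (scipy 1.17.1). The fit was tested on simulated counts. Alternatives were RLE scaling, no filter, the replicate number as a block, compared groups only, DESeq2 1.42.0, each compared library left out, a permutation test of each gene alone and 5 added to each count, and, chosen after seeing the data, library totals alone and both libraries that stand apart left out. Besides the members, the 3 genes most like each and the adjacent genes are named by rule. A planned list of other proton pump genes, to be found by description, had 0 members, and planned descriptions of sequences and of protein relatives were not made. The members and lists were chosen with earlier results of these data known.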

Additional observations from a re-analysis of the deposited data

Results flagged for a closer look

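In 15 sets of 6 libraries (CPM of BV-16/1, CPM of BV-70/5 and their log2 read ratio in each of the 5 groups), no library stood apart from the other 5 by Dixon's test at the 95% level. The freezing responses after ethanol and after water were not shown to differ in either gene or in the ratio.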

How the results depend on the processing

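For BV-16/1, the change with freezing after ethanol was 0.42 without a low-count filter (adjusted p of 0.0516), 0.39 in the compared groups only (0.0728) and 0.38 without both libraries that stand apart (0.0711), and 0.37 to 0.50 with 1 library left out, where 7 of 12 fits lost the call. The averaged change with freezing was 0.24 in the compared groups only (0.0752), 0.21 without both libraries (0.130) and 0.25 to 0.32 with 1 library left out, where 4 of 24 fits lost it. Library totals turned the changes of BV-70/5 with freezing to 0.07 after ethanol, after water and on average (0.0711, 0.0689 and 0.0700). BV-70/5 after ethanol against before pretreatment passed with library totals (0.36), DESeq2 (0.25) and the unadjusted exact permutation test (0.24), and after water against before pretreatment with the last of these (0.21). The test over 5 groups passed with library totals, at 0.000507 for BV-16/1 and 0.00471 for BV-70/5, and ranged from 0.0384 to 0.236 for BV-16/1 with 1 library left out. The difference of freezing responses of BV-70/5, 0.01, was -0.0055 with RLE scaling and -0.0033 by DESeq2, and -0.032 to 0.043 with 1 library left out. Under the same omissions the change of BV-16/1 ranged from -0.0094 to 0.088 for ethanol against water in frozen shoots and from -0.035 to 0.10 for water against before pretreatment, and that of BV-70/5 from -0.0035 to 0.072 for ethanol against water in frozen shoots. The ratio ranged from 0.46 to 0.60 for freezing after ethanol, 0.19 to 0.34 for freezing after water, -0.043 to 0.084 for ethanol against water in frozen shoots, -0.51 to -0.37 for ethanol against before pretreatment and -0.26 to -0.11 for water against before pretreatment. The correlation of the 2 genes was 0.016 with RLE scaling and -0.03 without ethanol replicate 4. The cause of these changes was not tested. Of the other values for the 2 genes, the ratio and the correlation, 475 kept their direction and their side of the threshold.

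The labels tie no replicate number to a batch, and the numbers were not taken as pairs. Deviations correlated over 0.1 in 5 of 60 same-numbered pairs across groups (r of -0.18 to 0.13), other pairs not counted. The 60 share libraries, and 21 were a library's best match (10 if unrelated). Frozen water against ethanol had 6, other group pairs 1 to 3, an untested hint of pairing. With the replicate block no call of either gene changed, with 0.41 and an adjusted p of 0.0385 for BV-16/1 and freezing after ethanol, and 1691 against 1740 genes called there. For the ratio, paired sign flips gave the same differences, 0.52 for freezing after ethanol and -0.44 for ethanol against before pretreatment, with an exact p of 0.0625 each (adjusted 0.1875). As 6 pairs allow no p below 0.0313, or 0.1875 after adjustment when 1 of the 6 comparisons alone reaches it, this test could hardly pass and shows nothing of stability.

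Of all genes, ethanol against water called 15 in frozen shoots, against 7 in the compared groups only and 36 by DESeq2, and 1 in unfrozen shoots, against 5, 8 and, without both libraries that stand apart, 0. By DESeq2, as by edgeR, 0 genes were called for the difference of freezing responses. Depth limits little here, since both genes had at least 303 reads per library.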
